A study of Mus musculus with 22 samples.

Results

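The immunity-related GTPases (IRG family) are represented here by 10 genes, Irgm1, Irgm2, Igtp, Iigp1, Ifi47, Tgtp1, Tgtp2, Gm12250, Gm4951 and Gm4841, out of 46882 genes in the deposited expression table. The family was chosen by its high measured level in MC38 tumors of wild-type mice, so its wild-type tumor levels against other groups are given as a description and not as a test. The days of wild-type tumors are compared by tests further on, with values that this choice used. The members were then taken by name. All 10 were found in the table, and all 10 passed the filter on low values in every main comparison. MC38 is a mouse colon carcinoma cell line from a C57BL/6 mouse that forms tumors after injection under the skin. RNA was sequenced from 2 samples of MC38 cells labelled day 0 with strain C57BL/6N, 2 samples of skin of wild-type C57BL/6N mice labelled day 23, and 12 MC38 tumors. Of the tumors, 3 of day 23 and 3 of day 46 grew in wild-type C57BL/6N mice, and 3 of day 13 and 3 of day 23 grew in mice labelled RAG1-/- of the strain B6.129S7-Rag1tm1Mom/J. The mice were 8 to 12 weeks old, and no age or genotype is given for the cells. RAG1 is needed to build antigen receptors, so RAG1-/- mice lack mature T and B cells but keep NK cells and myeloid cells. Wild-type and RAG1-/- mice are also labelled with different strain backgrounds, so genotype and strain cannot be told apart.

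IRG proteins are GTPases that mouse cells make in large amounts after interferon gamma, a cytokine released mainly by T and NK cells. They are known for cell-autonomous defence against intracellular parasites such as Toxoplasma gondii. Effector members (Iigp1, also named Irga6; the Tgtp proteins, or Irgb6; Ifi47, or Irgd; Gm12250, or Irgb10) gather on the membrane of the vacuole that holds the parasite, while the regulators Irgm1, Irgm2 and Igtp (Irgm3) sit on the cell's own membranes and keep the effectors inactive there. Gm4951 and Gm4841 are relatives of Iigp1. Of the 10 genes, 3 (Iigp1, Gm4951 and Gm4841) lie on chromosome 18 and 7 on chromosome 11.

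In the GENCODE annotation of GRCm38, Irgm1 is at chr11:48861968-48871683, Tgtp1 at chr11:48985327-48994172 and Tgtp2 at chr11:49057194-49064206, all on the minus strand, with Ifi47 beside them at chr11:49076587-49096974 on the plus strand. A second group on the plus strand holds Gm12250 at chr11:58187739-58189012, Igtp at chr11:58199556-58207591 and Irgm2 at chr11:58199618-58222782, whose gene model overlaps Igtp. The last 500 exonic bases of the GENCODE models, near which 3′ reads fall if the model ends are right, were free of exons of other genes in all 10. Relative to the GENCODE end, the RefSeq end lies at -3277 bases (upstream) for Irgm1 and at 620 bases (downstream) for Gm4951. Reads of these genes may thus fall outside the bases checked. The last 500 bases of the longest Tgtp1 and Tgtp2 transcripts were 100% identical, so the share of reads that each gene of this pair received is uncertain and their sum is the safer value. Gm12250 is a processed pseudogene in GENCODE and a protein-coding gene in RefSeq, whose model ends 1186 bases farther downstream, and the annotation used for counting is not given in the sources used here.

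RefSeq promoter sequence (GRCm38.p6) was at hand for 7 of the 10 genes, those on chromosome 11. In the 250 bases before the transcription start, 2 motifs were searched on both strands, because they are the textbook binding letters of interferon-activated factors: GAAA, any 2 bases and GAAA, the core of the interferon-stimulated response element (ISRE), and TTCNNNGAA, the gamma-activated sequence (GAS). The ISRE core was found in 6 of the 7 and GAS in 5 of the 7, against 2.98% and 7.02% of 32851 mouse promoter windows of the same length. Both together were found in 5 of the 7 and in 0.332% of all windows, and Ifi47 had neither in this window. A match to these letters is a description and not a binding site. For each gene 70 bases around the ISRE core nearest the start are shown 5′ to 3′ on the gene's strand, with the matches inside them in capitals, since they let the members be compared by eye.
Irgm1 (chr11:48871421-48871490, minus strand): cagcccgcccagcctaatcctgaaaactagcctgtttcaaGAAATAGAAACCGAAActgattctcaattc
Irgm2 (chr11:58214883-58214952, plus strand): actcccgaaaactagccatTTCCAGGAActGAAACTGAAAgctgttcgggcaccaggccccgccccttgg
Igtp (chr11:58199486-58199555, plus strand): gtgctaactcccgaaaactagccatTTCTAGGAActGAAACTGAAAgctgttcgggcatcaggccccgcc
Tgtp1 (chr11:48992284-48992353, minus strand): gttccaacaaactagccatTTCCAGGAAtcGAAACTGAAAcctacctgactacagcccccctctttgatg
Tgtp2 (chr11:49064243-49064312, minus strand): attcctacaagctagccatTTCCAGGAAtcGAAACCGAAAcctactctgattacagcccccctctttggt
Gm12250 (chr11:58183767-58183836, plus strand): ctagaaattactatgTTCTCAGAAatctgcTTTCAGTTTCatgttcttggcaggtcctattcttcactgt
In Irgm2, Igtp, Tgtp1 and Tgtp2 the GAS match lies directly upstream of the ISRE core on the same strand, in a shared stretch. The matches of these genes are therefore not independent of each other. In Gm12250 the ISRE core shown is on the opposite strand, as is another one 91 to 82 bases before the start that lies outside these 70 bases, and in Irgm1 a pair of overlapping ISRE cores stands without a GAS match.

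Libraries held 5589151 to 26134241 reads on genes, and 3 reads, taken as the floor, stood at 1.33 to 6.38 normalized counts. Floors and intervals cover counting error only. Rag1 reads were found in all 6 libraries labelled RAG1-/- (1 to 12 reads) and in 1 of 6 wild-type tumors (1 read). A 3′ tag may lie outside the deleted part, so these reads do not check the label. In MC38 cells the colon epithelial markers Cdx2, Krt18, Krt19 and Krt20 were at 0 and all 8 such markers summed to 4.28 to 11.7 normalized counts. In skin the keratinocyte markers summed to 330011 and 337825 normalized counts, and in no other library to more than 1786. The summed level of 10 T cell markers was 2.57 to 7.82 normalized counts in MC38 cells, 7.78 to 39.1 in RAG1-/- tumors, 44.0 to 267 in wild-type tumors and 395 to 498 in skin, and Cd3e, Cd3g and Cd8b1 were at 0 in every RAG1-/- tumor. The summed level of 10 macrophage markers was 172 to 198 in MC38 cells, 16201 to 27841 in RAG1-/- tumors, 22169 to 32809 in wild-type tumors and 11889 to 12930 in skin. Skin replicate 2 stood apart from replicate 1. Among 76 genes of at least 200 normalized counts in MC38 cells and at most 10% of that in both skin libraries, the median level was 6.54% of the MC38 level in replicate 2 and 1.65% in replicate 1, and 68 of the 76 were higher in replicate 2. These genes were chosen after the data were seen.

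The family was lowest in cultured MC38 cells, intermediate in tumors of RAG1-/- mice and highest in tumors of wild-type mice of day 23. The summed level of the 10 genes was 369 and 334 normalized counts in MC38 cells. In tumors of RAG1-/- mice the sum was 2262, 1711 and 2011 at day 13 and 1760, 2217 and 2833 at day 23. In tumors of wild-type mice it was 9945, 4490 and 7000 at day 23 and 3009, 3326 and 6317 at day 46. Skin gave 2296 and 4434, with the second library above every RAG1-/- tumor. Every tumor of wild-type mice lay above every tumor of RAG1-/- mice in this sum.

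**Figure D1:**
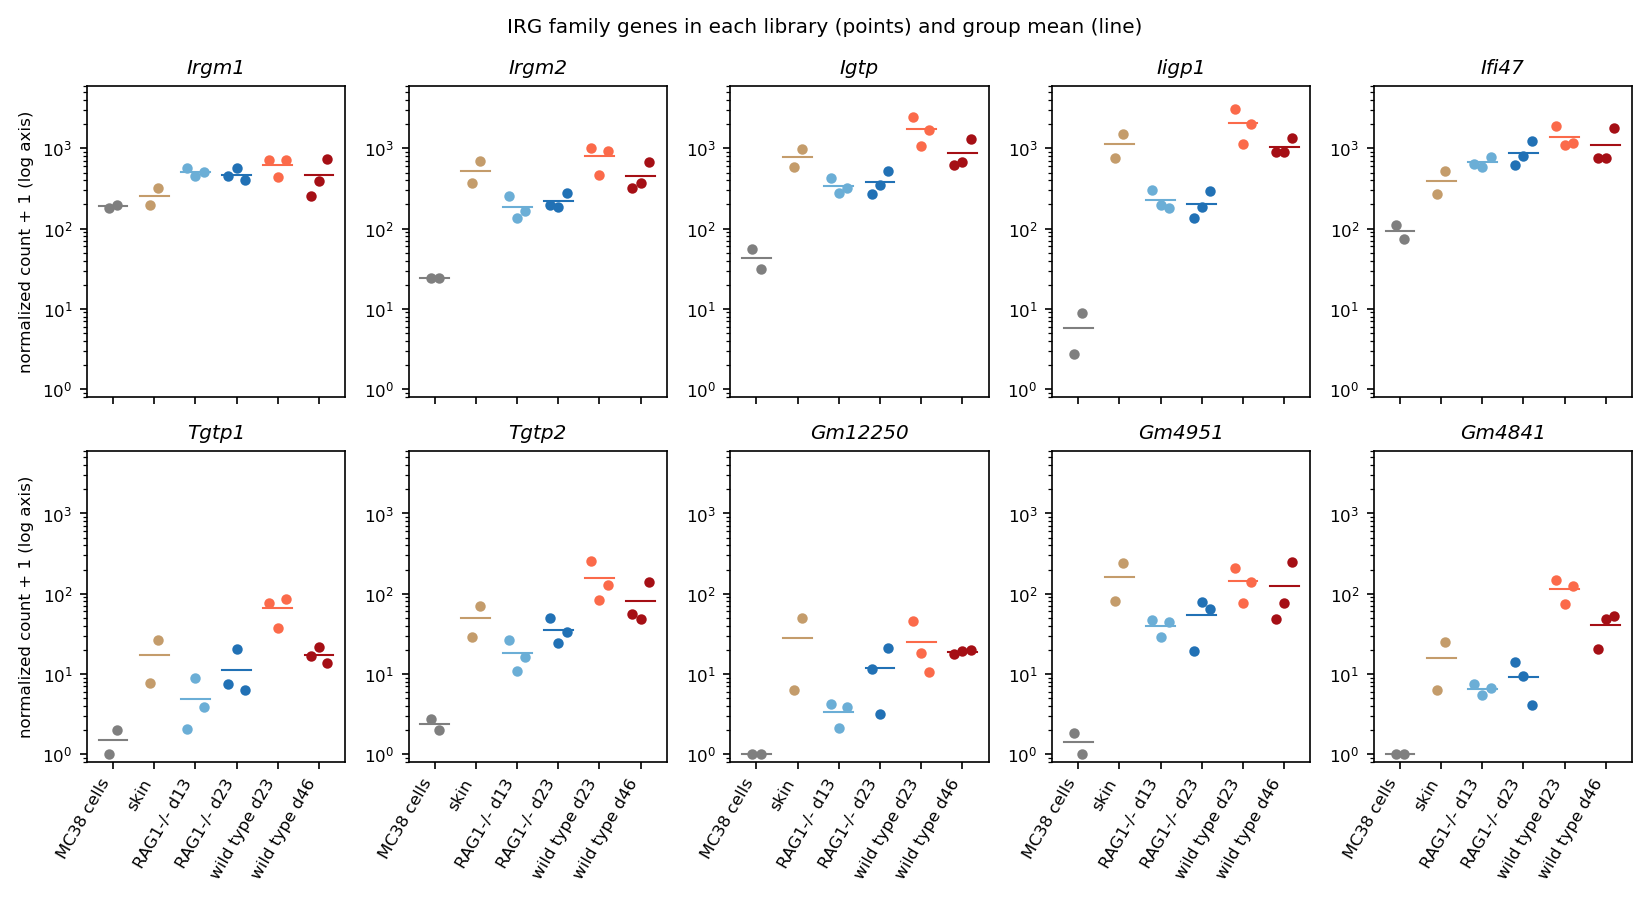
Normalized count + 1 (log axis) of each of the 10 IRG genes in the 16 libraries, with a point per library and a line at the group mean. MC38 cells are lowest for every gene except Irgm1, whose skin replicate 1 (194) lies between both MC38 libraries (178 and 197).

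The comparison of RAG1-/- tumors with cultured MC38 cells asks how the family differs between the cell line and a tumor that grows without mature T and B cells. All 10 genes were higher in the tumors (limma, adjusted p from 8.63e-09 to 0.0209), where 15.8% of the 14708 genes tested were called higher. This fit and its filter on low values also used the wild-type tumors, by whose level the family was chosen. With only the compared groups in the limma fit, Tgtp1 was not past the threshold (adjusted p = 0.0713) and Gm12250 did not pass the filter. Every tumor lay above both MC38 libraries for all 10, a pattern of 21.2% of 14575 genes. Under the floor of 3 reads this order is uncertain. Tgtp1 had 1 read in RAG1-/- day 13 replicate 1 (1.07 normalized counts) and 1 read in MC38 replicate 2 (0.98). Gm12250 had 1 read in day 13 replicate 2 and 1 in day 23 replicate 2. The median log2 difference of the 10 was 3.03, and that of all genes tested was 0.06. In bulk samples, fewer cells of a type and less RNA per cell cannot be told apart. The macrophage markers moved with this comparison, from at most 198 normalized counts in MC38 cells to at least 16201 in the tumors, and their part in it was not tested.

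Among the 3 regulators the estimate was smallest for Irgm1, which had 178 and 197 normalized counts in MC38 cells and 400 to 567 (median 481) in RAG1-/- tumors. The difference, the smallest of the 10, was 2.61-fold between the means and 1.37 ± 0.29 (SE) on the log2 scale of the fit (adjusted p = 0.00210). Igtp had 53.9 and 30.3 normalized counts in MC38 cells and 268 to 515 (median 334) in the tumors, a log2 difference of 3.08 ± 0.33 (adjusted p = 1.21e-06). Irgm2 had 23.1 and 23.5 in MC38 cells and 136 to 281 (median 190) in the tumors, a log2 difference of 3.02 ± 0.33 (adjusted p = 1.24e-06). Igtp and Irgm2 were thus 8.55-fold and 8.68-fold higher between the means, and no tumor overlapped with the cell line.

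Among the effectors, Iigp1 differed most. It had 2 and 8 reads in MC38 cells, or 1.71 and 7.82 normalized counts. The RAG1-/- tumors held 135 to 300 normalized counts (median 192), 45.0-fold higher between the means, and the log2 difference was 5.41 ± 0.41 (adjusted p = 8.63e-09). Ifi47 was well expressed in MC38 cells, with 110 and 73.3 normalized counts. It reached 594 to 1225 (median 703) in the tumors, a log2 difference of 3.05 ± 0.31 (adjusted p = 5.93e-07).

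The remaining genes were close to absent in the cell line. Tgtp1 and Tgtp2 together had 4 reads in both MC38 libraries and 207 reads in the 6 RAG1-/- tumors. Per size factor this was 17.8-fold higher, with an exact 95% counting interval of 6.84 to 65.8, and the summed pair differed by 3.47 on the log2 scale (adjusted p = 4.03e-06). Gm4951 had 1 read in MC38 cells and 306 in the tumors, or 18.3 to 78.7 normalized counts. The ratio of its reads per size factor was 105, with an interval of 18.7 to 4165. Gm4841 and Gm12250 had 0 reads in MC38 cells. With 3 reads per library as the floor, their mean levels in the tumors (6.88 and 6.61 normalized counts) were at least 2.50-fold and at least 2.40-fold higher. Of the alternative settings in which it was tested, Tgtp1 alone had an adjusted p under 0.05 in 11 of 17 and Gm12250 in 13 of 17, while the other 8 genes had one in all 18. Tgtp1 was not past it without MC38 replicate 1 or 2, nor was Gm12250.

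**Figure D2:**
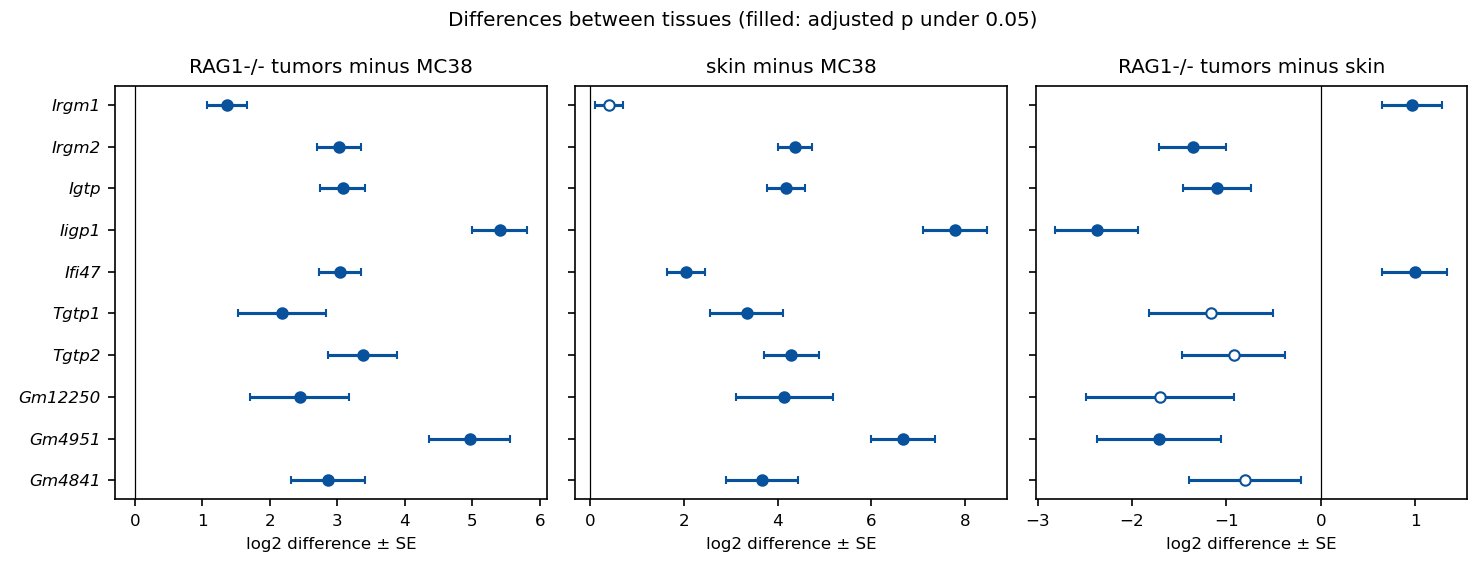
Log2 difference ± SE of each IRG gene between RAG1-/- tumors and MC38 cells (left), skin and MC38 cells (middle) and RAG1-/- tumors and skin (right), with filled points where the adjusted p was under 0.05. The difference of Irgm1 from MC38 cells is 1.37 in tumors and 0.41 in skin, the smallest of the family in both.

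Normal skin is the tissue in which the tumors grew. Against MC38 cells, 9 of the 10 genes were higher in skin, where 41.2% of 16780 genes tested were called higher. Iigp1 had 762 and 1520 normalized counts in skin, a log2 difference of 7.78 ± 0.68 (adjusted p = 0.000736). Gm4951 had 80.4 and 237, a log2 difference of 6.68 ± 0.69 (adjusted p = 0.00119). The regulators Irgm2 and Igtp were 22.7-fold and 18.5-fold higher between the means, and Ifi47 was 4.34-fold higher. The Tgtp pair was 36.2-fold higher, with a counting interval of 13.7 to 135. Gm4841 and Gm12250, with 0 reads in MC38 cells, were at least 5.38-fold and at least 9.78-fold higher. The exception was Irgm1, with 194 and 319 normalized counts in skin, whose log2 difference of 0.41 ± 0.29 was not past the threshold (adjusted p = 0.282). This estimate was near 0 and on the other side of it after libraries were rescaled to the same total (-0.0048). Leaving out skin replicate 1 or 2 left 5 or 3 of the 10 called.

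The RAG1-/- tumors and skin differed in both directions. Irgm1 and Ifi47 were higher in the tumors, where 24.7% of 16158 genes tested were called higher. Irgm1 differed by 0.96 ± 0.32 on the log2 scale (adjusted p = 0.0150), and Ifi47, with 268 and 525 normalized counts in skin, by 0.99 ± 0.35 (adjusted p = 0.0212). Iigp1, Irgm2, Igtp and Gm4951 were lower in the tumors, where 36.1% of all genes were called lower. The log2 differences were -2.38 ± 0.44 for Iigp1 (adjusted p = 0.000213), -1.36 ± 0.35 for Irgm2 (adjusted p = 0.00359), -1.10 ± 0.36 for Igtp (adjusted p = 0.0138) and -1.71 ± 0.65 for Gm4951 (adjusted p = 0.0322). Tgtp1, Tgtp2, Gm4841 and Gm12250 did not pass the threshold, with log2 differences of -1.16, -0.92, -0.80 and -1.71. Neither share of called genes was far from the background. The family was chosen with its levels in wild-type and RAG1-/- tumors known, and the part of that choice in the values here was not tested.

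The spread between both skin libraries touched each of these results. Every one of the 10 genes was higher in skin replicate 2, by a summed level of 4434 against 2296 normalized counts. The 12 genes of the type I interferon list, made up of genes that interferon alpha and beta induce, summed to 7082 and 1735 normalized counts in the same libraries, and the lymphocyte receptor gene Klra4, read at 3320 and 3846 normalized counts in MC38 cells, had 204 and 0. The part of these differences in the levels of the family was not tested. Without skin replicate 1 neither Irgm1 nor Ifi47 was called higher in the tumors, with log2 differences of 0.61 and 0.51. Without skin replicate 2 only Iigp1 was called lower. After rescaling to the same total, Iigp1 and Irgm2 alone were called lower, and Igtp and Gm4951 had log2 differences of -0.70 (adjusted p = 0.128) and -1.31 (adjusted p = 0.103).

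Ratios between members are given as a description. Iigp1 and Irgm1 had the largest and the smallest log2 differences from MC38 cells. These were 5.41 and 1.37 in RAG1-/- tumors and 7.78 and 0.41 in skin, so a shift of their ratio from MC38 cells restates those values. The 3′ counts of different genes were not divided by length, so the ratios below serve only to compare libraries. The ratio of Iigp1 to Irgm1 was 0.00962 and 0.0396 in MC38 cells, 0.299 to 0.724 in RAG1-/- tumors and 3.92 and 4.77 in skin. In wild-type tumors it was 1.81 to 4.30, which is set partly by the choice of the family. The groups of MC38 cells, RAG1-/- tumors and skin did not overlap in this ratio, which was not tested. Its MC38 values rest on 2 and 8 reads of Iigp1. The summed level of the 7 other genes per unit of the 3 regulators Irgm1, Irgm2 and Igtp was 0.331 and 0.446 in MC38 cells. It was 0.811 to 1.37 in RAG1-/- tumors, 1.01 and 1.24 in skin and 1.11 to 1.54 in wild-type tumors, so that all tumors and skin lay above MC38 cells and overlapped among themselves.

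**Figure D3:**
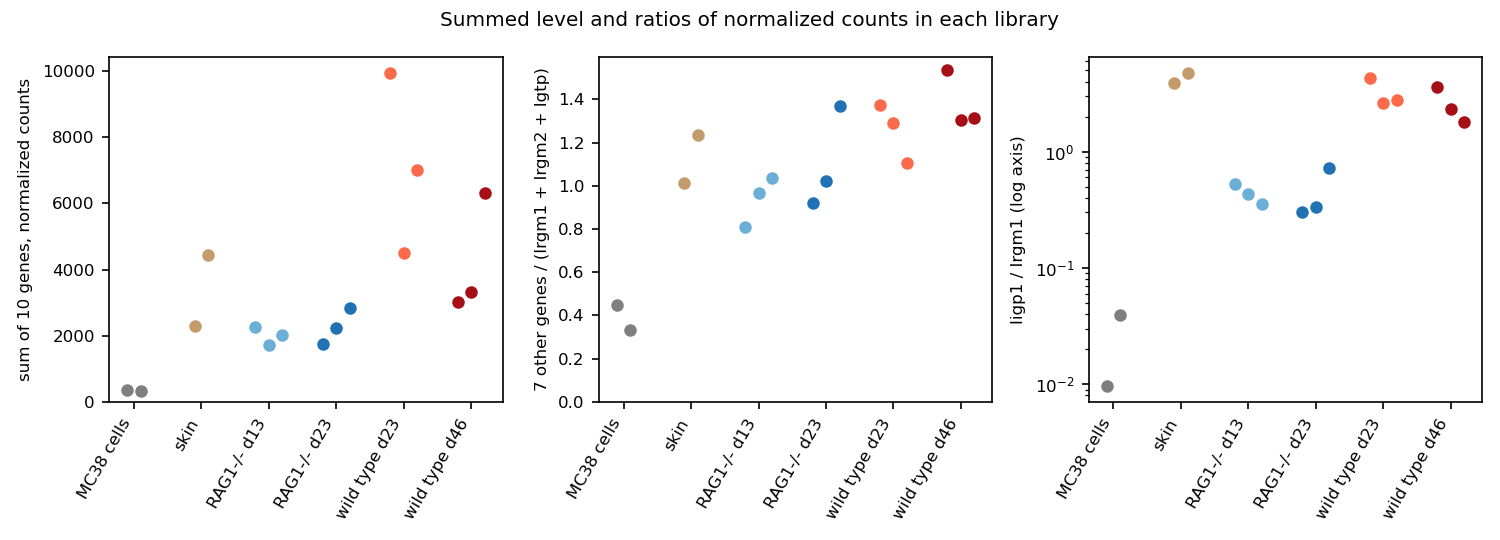
Sum of the 10 IRG genes in normalized counts (left), ratio of the 7 other genes to the 3 regulators (middle) and ratio of Iigp1 to Irgm1 (right, log axis), with a point per library. The Iigp1 to Irgm1 ratio lies below 0.04 in MC38 cells, between 0.299 and 0.724 in RAG1-/- tumors and between 1.81 and 4.77 in skin and wild-type tumors.

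Between day 13 and day 23 no member passed the threshold in tumors of RAG1-/- mice. With 3 tumors per day, this does not show that the levels stayed the same. Of the 10 genes 0 were called by limma, edgeR or DESeq2 and 0 had an unadjusted p under 0.05, and limma called 0% of 14746 genes, with 1722 at an unadjusted p under 0.05, while edgeR called 0 and DESeq2 called 90 higher and 116 lower. The regulators differed by -0.12 (Irgm1), 0.28 (Irgm2) and 0.12 (Igtp) on the log2 scale, with SE of 0.31 to 0.34. The largest estimates were those of Gm12250, Tgtp1 and Tgtp2. Gm12250 had 3.21, 1.11 and 2.86 normalized counts at day 13 and 10.5, 2.13 and 19.9 at day 23, a log2 difference of 1.48 ± 0.72 (adjusted p = 0.445). The summed Tgtp pair had 26.7, 17.8 and 18.1 at day 13 and 55.0, 42.6 and 37.6 at day 23, and differed by 1.08 (adjusted p = 0.314). These days did not overlap, and 9.48% of 14658 genes lay above without overlap at day 23.

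Between day 23 and day 46 all 10 estimates were negative in tumors of wild-type mice, and 0 passed the threshold. The family was chosen by its level in these tumors, and the part of that choice in the differences between days was not tested. The median log2 difference of the 10 was -0.86, and that of all genes tested was near 0 (0.0049). An unadjusted p under 0.05 was reached by 5 of the 10 (Igtp, Tgtp1, Gm4841, Iigp1 and Irgm2). The direction was not particular to the family. All 9 guanylate-binding protein genes tested and all 12 of the type I interferon list also had negative estimates, with medians of -0.76 and -0.49. So did 9 of 10 genes of interferon-gamma signalling, 4 of 6 other IRG relatives and 7 of 13 genes of the machinery that loads IRG proteins. No member was called by edgeR or DESeq2, and limma called 0% of the 14746 genes, with 1261 at an unadjusted p under 0.05, while DESeq2 called 25 higher and 16 lower. Igtp had 2449, 1062 and 1672 normalized counts at day 23 and 620, 682 and 1308 at day 46, and differed by -0.99 ± 0.33 (adjusted p = 0.444). Its groups overlapped. Gm4841 had 146, 73.3 and 122 at day 23 and 19.5, 47.0 and 51.5 at day 46, a log2 difference of -1.57 ± 0.53 (adjusted p = 0.444). Tgtp1 had 76.0, 36.7 and 84.0 at day 23 and 15.6, 20.8 and 12.6 at day 46, a log2 difference of -1.88 ± 0.63 (adjusted p = 0.444). Tgtp1 and Gm4841 were the 2 genes whose day 46 libraries all lay below those of day 23, where 5.46% of 14765 genes did so. For Tgtp1 this depends on how reads were split with Tgtp2. The summed Tgtp pair had 327, 118 and 212 at day 23 and 70.4, 68.5 and 153 at day 46, which overlapped. Its log2 difference was -1.15 (limma, adjusted p = 0.462). Gm12250 differed by -0.13 ± 0.72, and its sign changed without wild-type day 23 replicate 1.

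**Figure D4:**
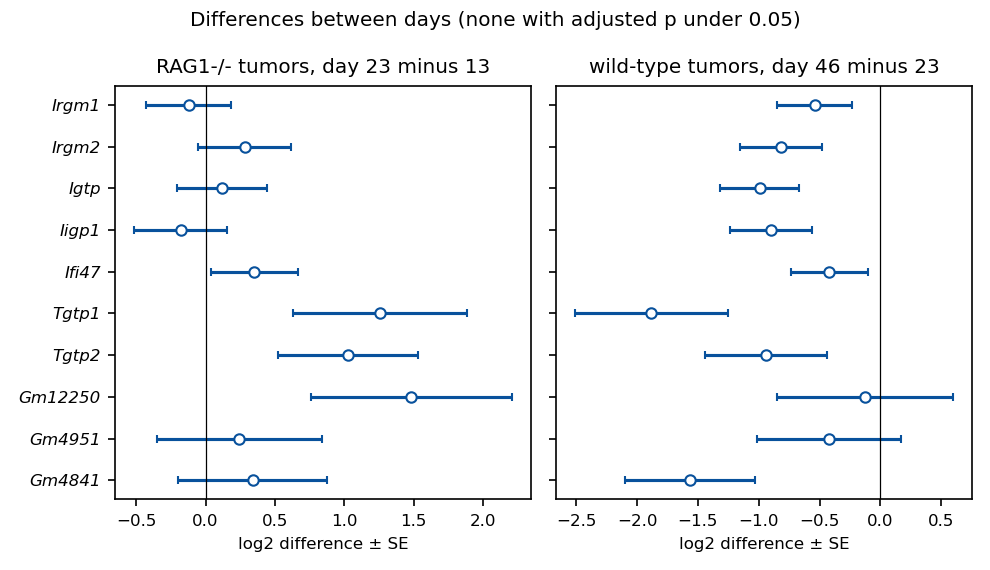
Log2 difference ± SE of each IRG gene between day 23 and day 13 in RAG1-/- tumors (left) and between day 46 and day 23 in wild-type tumors (right), with no point past an adjusted p of 0.05. In wild-type tumors all 10 estimates lie below 0, from -1.88 for Tgtp1 to -0.13 for Gm12250. The summed Tgtp pair, which is not drawn, differed by -1.15.

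In both wild-type groups and in RAG1-/- tumors of day 13 the members tended to share their highest and lowest library. How often other genes share them in this way was not counted. In wild-type tumors of day 23, replicate 1 was the highest for 9 of the 10 genes and replicate 2 the lowest for 9. In wild-type tumors of day 46, replicate 3 was the highest for 9 and replicate 1 the lowest for 7. In RAG1-/- tumors of day 13, replicate 1 was the highest for 8 and replicate 2 the lowest for 8. In RAG1-/- tumors of day 23 no library stood out, with replicates 1, 2 and 3 the highest for 2, 3 and 5 genes. In wild-type tumors the T cell markers summed to 267, 106 and 174 normalized counts at day 23 and to 44.0, 175 and 214 at day 46. The wild-type libraries of each day thus stood in the same order by T cell markers as by the sum of the family. The macrophage markers summed to 32809, 27442 and 22169 at day 23 and to 24266, 30256 and 22860 at day 46, which is not the order of the family sums on either day. The type I interferon genes summed to 6103, 3164 and 5738 at day 23, the order of the family, and to 3178, 2461 and 4124 at day 46, which is not. The 8 NK cell markers summed to 4161, 7526 and 4647 at day 23 and to 6084, 4636 and 2733 at day 46. That is the reverse of the order of the family on both days. Klra4 made up most of these sums, with means of 5260 of 5445 at day 23 and 4333 of 4484 at day 46. MC38 cells alone had a mean of 3583 for Klra4, while Ncr1, Klrb1c, Klrd1, Klre1, Gzma and Prf1 were at 0 there. The order of this sum is thus mainly that of Klra4 and is no measure of NK cells. An order of 3 libraries is little to compare, and the part of T cells or of the other lists in the level of the family was not tested.

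The wild-type tumor level is the value by which the family was chosen, and what follows describes it with no test. Wild-type and RAG1-/- tumors share day 23, a contrast in which 0.231% of 14746 genes were called higher in wild-type tumors. The regulators Igtp, with 2449, 1062 and 1672 normalized counts against 268, 351 and 515, and Irgm2, with 1010, 464 and 928 against 196, 183 and 281, did not overlap. The effector Iigp1 had 3118, 1135 and 2023 in wild-type tumors and 135, 187 and 289 in RAG1-/- tumors, 10.3-fold apart between the means. Gm4841 was 13.8-fold apart, with 146, 73.3 and 122 against 13.1, 8.51 and 3.09. Irgm1 had 726, 434 and 724 against 450, 562 and 400, which overlapped, and the means were 1.33-fold apart. Ifi47 also overlapped, with 1913, 1111 and 1171 against 613, 802 and 1225. The summed Tgtp pair had 327, 118 and 212 in wild-type tumors and 55.0, 42.6 and 37.6 in RAG1-/- tumors. Gm4951 had 210.2, 75.9 and 138 against 18.3, 78.7 and 62.7 and Gm12250 had 45.0, 17.0 and 9.51 against 10.5, 2.13 and 19.9, and both overlapped. Thus 1 of 3 regulators and 2 of the named effectors, Ifi47 and Gm12250, had wild-type libraries within the range of RAG1-/- tumors. At day 23 wild-type libraries lay above all RAG1-/- libraries for 6 of the 10 genes, a pattern of 8.48% of 14558 genes, and over both days for 4 of the 10 (Iigp1, Igtp, Irgm2 and Gm4841), a pattern of 0.651% of 14746 genes. Nothing is read from these counts, since the choice of the genes fixed them.

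By the order of the group means, Iigp1 was highest in wild-type tumors of day 23 (2092 ± 994), then skin (1141 ± 536) and wild-type tumors of day 46 (1052 ± 252, SD, n = 3, 2 and 3). These 3 neighbours overlapped, while RAG1-/- tumors of day 13 (225) and day 23 (204) overlapped with each other and lay apart from both the groups above and MC38 cells. Irgm2 gave the same order except that RAG1-/- tumors of day 23 stood above those of day 13. Irgm1 differed from both, since each of its 6 groups overlapped with its neighbour in the order, from 628 in wild-type tumors of day 23 to 188 in MC38 cells. Gm4951 and Gm12250 had their highest mean in skin, which overlapped with wild-type tumors of day 23.

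Genes of the interferon pathway that are no IRG member were tested between wild-type and RAG1-/- tumors, over 5 lists with 54 genes of which 50 passed the filter. At day 23, 3 were higher and 0 lower, where 0.231% and 0.0475% of 14746 genes were called. Of 10 genes of interferon-gamma signalling, 2 were higher. Irf1, a transcription factor that interferon gamma induces, had 2516, 1834 and 1651 normalized counts in wild-type tumors and 746, 1015 and 1087 in RAG1-/- tumors, a log2 difference of 1.07 ± 0.21 (adjusted p = 0.0438). Nlrc5, the activator of MHC class I genes, differed by 1.56 ± 0.26 (adjusted p = 0.0227). Neither gene overlapped between the groups, a pattern of 8.48% of genes. Ifng itself had 22.9, 3.41 and 9.51 normalized counts in the wild-type group of day 23, against 5.24, 0 and 1.33 in RAG1-/- tumors, with 0 reads in MC38 cells and in RAG1-/- tumors of day 13. Its log2 difference of 2.08 ± 0.98 was not past the threshold (adjusted p = 0.447).

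The guanylate-binding proteins (GBP), large interferon-induced GTPases that act on the same vacuoles as the IRG proteins, had 1 of 9 tested genes higher at day 23, Gbp7, by 1.46 ± 0.24 (adjusted p = 0.0227). Over both days 3 of 9 were higher, Gbp2b, Gbp8 and Gbp7, by 3.38, 1.32 and 1.13 on the log2 scale. Of all genes 0.57% were called higher and 0.142% lower in this contrast. It sets wild-type tumors of days 23 and 46 against RAG1-/- tumors of days 13 and 23, so it is not matched for day. Over both days Nlrc5 (1.60 ± 0.18, adjusted p = 0.000514) was the 1 higher gene of interferon-gamma signalling, and F830016B08Rik, a further IRG gene, was 2.73 ± 0.50 higher (adjusted p = 0.0156). Of the 12 genes of the type I interferon list 0 were called in either contrast by limma, with 2 and 1 at an unadjusted p under 0.05, 0 by edgeR and 1 and 0 by DESeq2, and the median log2 difference over both days was -0.01. Of the 13 genes of the machinery that loads IRG proteins onto vacuoles, which is part of autophagy, 0 were called by limma, edgeR or DESeq2, with 1 and 0 at an unadjusted p under 0.05. Irgq, a quiescent relative outside the interferon response, had a log2 difference of 0.02 ± 0.19 over both days (adjusted p = 0.983). DESeq2 called 9 of the 50 higher at day 23, 6 of them GBP genes, and 11 over both days, 7 of them GBP genes. Limma called 0 of the 50 at day 23 without RAG1-/- day 23 replicate 1 or 2 or without wild-type day 23 replicate 1 or 3, and the genes called higher among all genes fell from 34 to 6, 8, 7 and 4 in the same fits. The lists were written with earlier results of these data known, and these counts are a description of the lists.

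**Figure D5:**
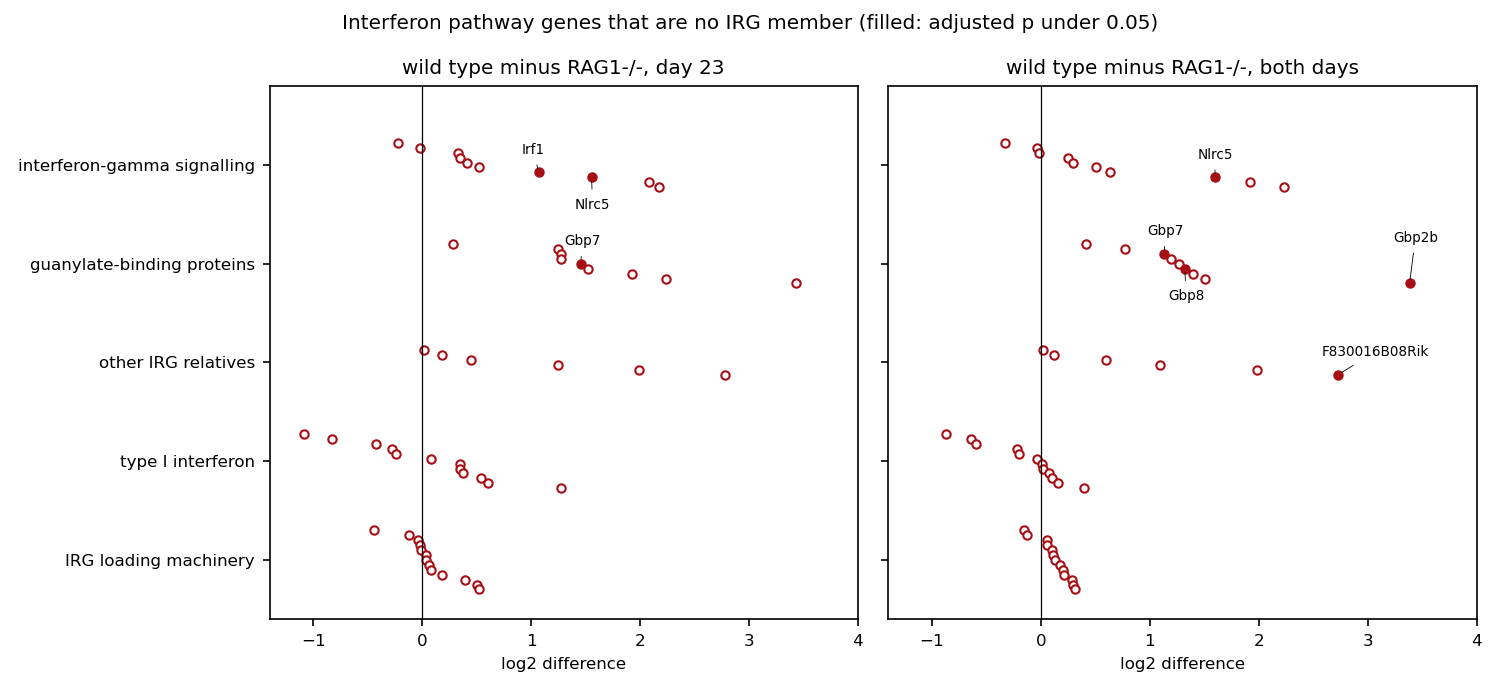
Log2 difference between wild-type and RAG1-/- tumors at day 23 (left) and over both days (right) of 50 interferon pathway genes that are no IRG member, with a point per gene in 5 lists and filled points where the adjusted p was under 0.05. Filled points fall in interferon-gamma signalling and guanylate-binding proteins at day 23 and also in other IRG relatives over both days, and none in type I interferon or loading machinery. The right panel sets wild-type days 23 and 46 against RAG1-/- days 13 and 23.

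Between RAG1-/- tumors and MC38 cells the same lists moved more widely. Of 49 genes tested 31 were higher and 3 lower, beside the 15.8% and 7.55% of all genes. Type I interferon genes were higher in 11 of 12, led by Irf7, the factor that amplifies the type I response, at 7.49 ± 0.26 (adjusted p = 1.69e-13). Of 9 GBP genes 7 were higher, led by Gbp5 at 4.40 ± 0.49 and Gbp3 at 4.36 ± 0.32. Of 9 genes of interferon-gamma signalling 6 were higher, among them Irf8, a factor of myeloid cells, at 6.60 ± 0.36 and Irf1 at 1.23 ± 0.20. The loading machinery went both ways, with Trim21, Map1lc3a and Atg5 higher and the autophagy receptor Sqstm1 (-1.83 ± 0.19), Gabarapl1 and Traf6 lower. Irgq differed by -0.43 ± 0.26 (adjusted p = 0.261). Macrophage markers rose between the same groups from at most 198 to at least 16201 normalized counts, and their part in these differences was not tested.

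Likeness to the family was measured as Pearson's r of log2(normalized count + 1) with the mean profile of the 10 genes, as a description and with no test. Over the 16 libraries, which share depth and tissue differences, the 5 nearest of 16148 genes were Gbp7 (0.978), Psmb9 (0.977), Il18bp (0.963), Gbp8 (0.959) and Sp140 (0.954). Psmb9 is a subunit of the immunoproteasome and Il18bp a secreted inhibitor of interleukin 18. Over the 12 tumors the 5 nearest were Cd8a (0.977), Gbp7 (0.966), Sp140 (0.95), Nlrc5 (0.949) and Psmb9 (0.949). Cd8a, a chain of the CD8 receptor of cytotoxic T cells, had 79.7, 17.0 and 49.1 normalized counts in wild-type mice at day 23, then 5.86, 14.1 and 30.8 at day 46, and it was at 0 in 5 of the 6 RAG1-/- tumors, so its likeness rests in part on the wild-type level that chose the family. Within the family, Igtp was most like the mean of the other members (0.984 over 16 libraries and 0.976 over 12 tumors) and Irgm1 least (0.655 and 0.389).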

How the data were processed

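The authors prepared QuantSeq 3′ libraries, which read each transcript near its 3′ end, sequenced them on an Ion Proton, trimmed reads with Cutadapt and Trimmomatic, aligned them to mm10 with STAR and then Bowtie2, kept 1 primary alignment where a read had several, discarded ribosomal RNA and obtained gene counts from HTSeq-count. The deposited signal is the count per gene divided by a DESeq2 size factor, the normalized count. The annotation, strand setting and tool versions are not given in the sources used here. Primary alignments can fall on the wrong copy of near-identical genes. A second deposited table, of anti-PD-L1 or IgG2b treated tumors, has 6 columns whose names match no label, and was not used here.

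Dividing each of the 16 libraries by what 1 read is worth gave whole numbers for 100% of values (tolerance 0.01 reads), so reads and size factors were recovered. Libraries held 5589151 to 26134241 reads on genes. The main test was limma 3.58.1 (R 4.3.3) with a mean-dependent trend on log2(normalized count + 1), two-sided, on genes whose mean over the fitted libraries was 5 or more, with Benjamini-Hochberg adjustment over all genes tested and a threshold of 0.05. Differences on this scale understate the change of low genes. Contrasts among tumors used the 12 tumors, RAG1-/- tumors against MC38 cells 14 libraries, skin against MC38 cells 4 and RAG1-/- tumors against skin all 16. Alternatives were pseudocounts of 0.1 and 5, no filter, rescaling to the total or upper quartile, the replicate number as a block, each replicate left out, other libraries in the fit, Tgtp1 and Tgtp2 summed, and edgeR 4.0.16 and DESeq2 1.42.0 on the recovered reads. The fits were tested on simulated data. The labels do not say whether MC38 or skin replicates are separate cultures or animals, and per the study's methods each excised tumor was cut into pieces for DNA, RNA and cell analysis, so p-values measure the spread between these samples. No 2 replicates were copies of a library.

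The members and the gene lists were chosen with earlier results of these data known. Named genes are the 10 members, Rag1, Ifng, Irf1 and Irgq, up to 4 called genes with the largest difference per list, comparison and direction, and the 5 genes most like the family. A gene of the interferon-gamma signalling list is not reported here and is not in its counts. Klra4 and the markers at 0 were named after their values were seen. Promoters came from RefSeq and gene positions from GENCODE M21, and transcript ends were aligned with Biopython 1.88.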

Additional observations from a re-analysis of the deposited data

Results flagged for a closer look

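In groups of 6 tumors of a genotype, 3 of 20 tested combinations of gene and genotype held a library set apart from the nearest other. Its gap exceeded the 95% critical value of Dixon's ratio for 6 samples (0.625). Chance gives about 1 in 20 where values come from 1 normal distribution. These groups pool 2 days, the counts were not log-transformed and the genes vary together, so no excess over chance is read from the 3. Tgtp1 in RAG1-/- day 23 replicate 2 had 19.2 normalized counts, or 9 reads, with the next library at 7.78 (ratio 0.629). Tgtp1 took 45% of the Tgtp pair in this library, a split that is uncertain. The summed pair was 42.6 there, between 55.0 in replicate 1 and 37.6 in replicate 3, so the sum did not stand out. Ifi47 in RAG1-/- day 23 replicate 3, the most deeply sequenced library, had 1225 normalized counts with the next at 802 (ratio 0.670). Gm12250 in wild-type day 23 replicate 1 had 45.0 normalized counts with the next at 18.8 (ratio 0.737).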

How the results depend on the processing

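Of the counts of called genes, 257 of the alternative values stayed within 1.5 times the main count and 15 did not. The 257 include counts of 0 beside a main count of 0, as for the members in both comparisons of days. They are therefore no measure of how firm the results are. After rescaling to the same total, 2 members were lower in RAG1-/- tumors than in skin in place of 4. Among all genes the split of higher and lower calls moved with scaling, for skin against MC38 cells from 6920 and 3482 to 5680 and 5004 (total), for RAG1-/- tumors against skin from 3999 and 5829 to 5762 and 4329 (total), and for RAG1-/- tumors against MC38 cells from 2317 and 1111 to 2438 and 600 (upper quartile). Rescaling to the total moved the median log2 difference of all genes from 0.40 to -0.03 for skin against MC38 cells, from -0.20 to 0.21 for RAG1-/- tumors against skin and from -0.01 to -0.13 for day 23 against day 13. DESeq2 called 9 pathway genes higher in wild-type tumors at day 23 and 11 over both days, in place of 3 and 5, and limma with no filter on low values called 3 over both days.

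With each replicate left out, the members higher in skin than in MC38 cells numbered 3 to 7, those higher in RAG1-/- tumors than in skin 0 to 2 and those lower 1 to 6. Pathway genes lower in RAG1-/- tumors than in MC38 cells numbered 1 to 3, and those higher in wild-type tumors 0 to 4 at day 23 and 3 over both days without wild-type day 23 replicate 1 to 9 without RAG1-/- day 23 replicate 3. A sample left alone in its group was assumed to vary like the other groups.

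Signs that turned with a replicate left out belonged to differences not past the threshold. For day 23 against day 13 the range was -0.47 to 0.083 for Iigp1 (positive without RAG1-/- day 13 or day 23 replicate 1), -0.13 to 0.34 for Igtp, -0.053 to 0.84 for Gm4841 and -0.15 to 0.87 for Gm4951. For day 46 against day 23 it was -0.61 to 0.45 for Gm12250 and -1.10 to 0.076 for Gm4951. For RAG1-/- tumors against skin Gm4841 ran from -1.79 without skin replicate 1 to 0.20 without replicate 2. Rescaling to the total turned Irgm1 to -0.0048 for skin against MC38 cells. The cause was not tested.

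The replicate numbers do not pair the samples, since no comparison had every correlation of same-numbered deviations over 0.1. Of the group pairs within the comparisons, only wild-type day 46 with RAG1-/- day 23 had all 3 over it (0.105, 0.208 and 0.135), and these groups differ in both genotype and day. With the replicate block 10 members stayed higher in RAG1-/- tumors than in MC38 cells, 9 in skin than in MC38 cells, and 2 higher and 4 lower in RAG1-/- tumors than in skin, and the pathway genes higher in wild-type tumors numbered 2 in place of 3 at day 23 and 7 in place of 5 over both days. Depth limits Gm4841, Gm12250 and Tgtp1 most, with at most 12 reads per RAG1-/- tumor except for 45 of Gm12250 in day 23 replicate 3.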
